A study of Mus musculus with 4 samples.

Results

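The cells described here are late proximal tubule cells of untreated mouse kidney, recognised by the transcript of the amino acid transporter gene Slc7a13. They were taken from the untreated library by 2 genes. A cell was a member if Slc7a13 had at least 5 unique molecular identifiers (UMIs, which count captured RNA molecules) per 10000 UMIs and at least 3 UMIs outright, and if Slc5a2 had fewer than 5 UMIs per 10000. Barcodes with fewer than 500 UMIs, fewer than 300 genes or more than 50% mitochondrial UMIs were left out. Of 6546 kept untreated cells, 507 (7.75%) were members, out of 24410 kept cells in the whole series.

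The series sampled kidney cells of BAC-CluGFP transgenic mice, in which a bacterial artificial chromosome ties green fluorescent protein (GFP) to the clusterin gene Clu. Kidneys were either left untreated or subjected to ischemia-reperfusion injury (IRI, with 35 min of ischemia) and collected on day 2, 7 or 30, and each group has 1 library. All 4 groups share the reporter, the enzymatic dissociation and the sort for GFP-positive cells before 10x Genomics droplet capture. The labels state neither sex nor age, nor how many mice went into each library. A single library per group allows no test, no p-value is given, and every interval is a 95% interval for counting error only.

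The proximal tubule takes back most filtered solute, and its work is divided along its length. The early convoluted part holds the low-affinity glucose transporter encoded by Slc5a2 and recovers the bulk of glucose, phosphate and neutral amino acids. The late straight part, in the outer stripe of the medulla, expresses Slc7a13, a carrier of acidic amino acids and cystine that pairs with the product of Slc3a1. It is also known for secretion of organic anions, for peroxisomes and cytochrome P450 enzymes, for androgen-dependent transcripts in mice, and for its sensitivity to ischemia.

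The depth of the libraries differed. They held between 49397016 and 98818914 UMIs, and the shallowest barcodes of the untreated, day 2, day 7 and day 30 libraries had 2335, 3881, 18362 and 5976 UMIs. The median mitochondrial share of a kept cell was 14.5% in the untreated library, 2.87% on day 2, 3.59% on day 7 and 3.75% on day 30. No pair of libraries shared more than 20 barcodes, and the members shared 0, 0 and 1 with the libraries of days 2, 7 and 30.

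Each member had between 2342 and 62596 UMIs, with a median of 10179 UMIs and 2514 genes. Slc7a13 had a median of 9 UMIs per member, with a lowest value of 3 and a highest of 120. Scaled to depth this was a median of 9.77 and a highest value of 32.9 UMIs per 10000, and 246 members reached 10 per 10000. Most members, 356 of 507 (70.2%), had no Slc5a2 UMI at all. These values chose the cells and are a description.

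**Figure D1:**
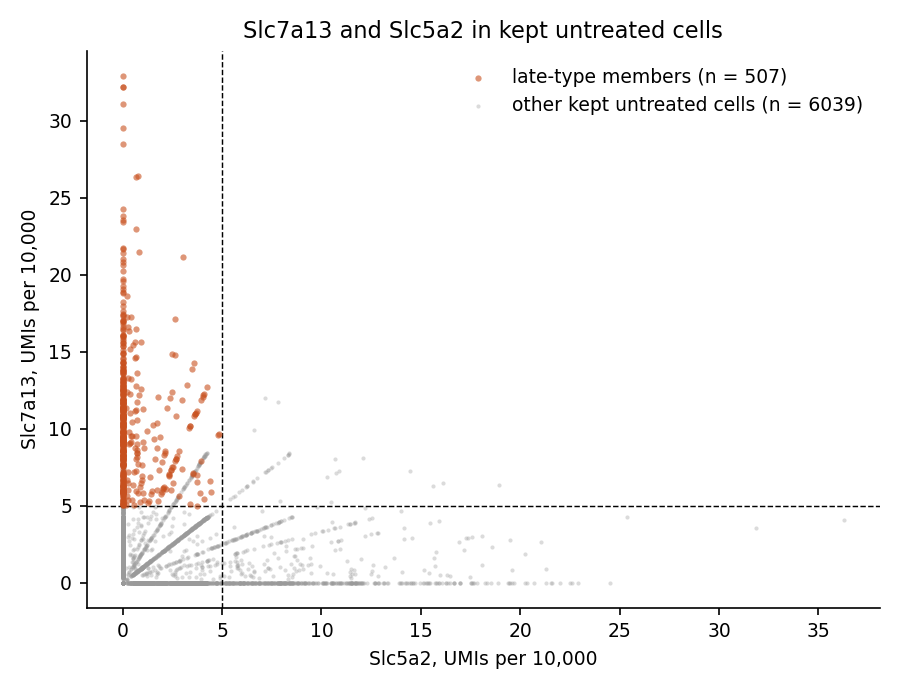
Slc7a13 (vertical axis) against Slc5a2 (horizontal axis), both in UMIs per 10000, with 1 point per kept untreated cell. Dashed lines mark the limit of 5 per 10000 on each axis. The 507 members lie above the horizontal line and left of the vertical one, and only 5 cells passed the Slc7a13 limits while also reaching the Slc5a2 limit.

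The edge of the rule cuts through a continuous range of cells. Just inside it, 58 members had 5 to 6 Slc7a13 UMIs per 10000, and in their pooled RNA, where CPM is the UMIs of a gene per 1000000 UMIs of the pool, there were 3034 CPM of Acy3, 748 CPM of Slc22a6 and 70494 CPM of Kap. Just outside, 237 cells had 4 to 5 per 10000, with 2316 CPM of Acy3, 637 CPM of Slc22a6 and 50262 CPM of Kap. A further 246 cells passed 5 per 10000 with fewer than 3 UMIs, and 124 members had exactly 3. The cells just outside were shallower, with a median of 4040 UMIs against 10186 UMIs just inside.

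The label of late proximal tubule was checked against the other markers and by clustering, and it did not hold evenly over the members. Acy3, an aminoacylase that removes acetyl groups from acetylated amino acids and mercapturates, had 2866 CPM in members, 996 CPM in cells chosen by the mirrored rule on Slc5a2 (447 cells, called Slc5a2-type cells here), and 993 CPM in all other kept untreated cells. Slc22a6, the basolateral uptake carrier for organic anions, had 728 CPM in members, 304 CPM in Slc5a2-type cells and 259 CPM in all other kept untreated cells. Clusters made without Slc7a13 and Slc5a2 placed 474 members (93.5%) in 7 proximal tubule-like clusters and the other 33 across clusters of other classes, with at most 6 in any of them. By their markers, clusters 14 and 15 were late proximal tubule-like and held 243 members (47.9%). Clusters 4 and 6 were early proximal tubule-like and held 110 members (21.7%), and 121 (23.9%) were in proximal tubule-like clusters named for neither segment. The name of cluster 4 rested on 4 markers, and none of them was among its 10 leading genes by fold, whereas the late marker Slc22a30 was. Slc22a30 and Atp11a, another late marker, had 1046 and 1141 CPM in the members of cluster 4. In the members of cluster 14 they had 344 and 518 CPM. Late markers also went the other way, such as Acy3 with 1549 CPM in cluster 4 and 3063 CPM in cluster 14.

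UMIs of these markers were also found outside the proximal tubule-like clusters, and the part of free RNA in them was not tested. With each cell thinned to 2000 UMIs, a Slc7a13 UMI was found in 85.4% of members (82.0 to 88.4%) and in 13.7% of 3701 non-member cells outside the proximal tubule-like clusters (12.6 to 14.8%). Unthinned, those shares were 100% and 34.0%, at median depths of 10179 and 6444 UMIs. Acy3 was found in 94.7% of thinned members and 58.8% of the non-proximal cells. For Slc22a6 the shares were 66.9% of members and 24.6% of the non-proximal cells. Unthinned, Acy3 was found in 99.2% of members and 91.7% of the non-proximal cells, and Slc22a6 in 89.9% and 53.9%. Kap was found in 100% of members and in 99.6% of non-proximal cells, so for this gene only the level, and not its presence, told the cells apart.

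Slc7a13 (ENSMUSG00000041052) lies on the plus strand of chr4:19818725-19842218 in the mouse build mm10, Acy3 (ENSMUSG00000024866) on the plus strand of chr19:3986570-3990007, and Slc22a6 (ENSMUSG00000024650) on the plus strand of chr19:8618039-8628299. Kap (ENSMUSG00000032758), the kidney androgen-regulated protein and the most abundant transcript of the members, lies on the minus strand of chr6:133849851-133853762. All 4 are protein-coding genes in the GENCODE annotation.

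Promoters are shown for 4 genes that the results turn on, as the RefSeq GRCm38.p6 sequence from 250 bases before to 50 bases after the start. Kap and Acy3 were detected in nearly all members, whereas Slc22a6 and Slc22a19 are carriers of the same family that parted within the members. Capitals mark matches, on either strand, to TATAAA (a core promoter box), GTTAAT (part of the HNF1 motif), CAAAGT (part of the HNF4 motif) and AGAACA (part of a steroid receptor motif).
Kap, minus strand of chr6:133853618-133853917: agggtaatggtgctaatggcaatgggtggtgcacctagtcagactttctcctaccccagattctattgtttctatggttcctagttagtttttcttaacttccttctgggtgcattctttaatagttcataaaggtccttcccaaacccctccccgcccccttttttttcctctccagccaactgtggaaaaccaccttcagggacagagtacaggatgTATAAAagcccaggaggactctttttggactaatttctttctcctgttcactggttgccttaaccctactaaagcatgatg
Acy3, plus strand of chr19:3986320-3986619: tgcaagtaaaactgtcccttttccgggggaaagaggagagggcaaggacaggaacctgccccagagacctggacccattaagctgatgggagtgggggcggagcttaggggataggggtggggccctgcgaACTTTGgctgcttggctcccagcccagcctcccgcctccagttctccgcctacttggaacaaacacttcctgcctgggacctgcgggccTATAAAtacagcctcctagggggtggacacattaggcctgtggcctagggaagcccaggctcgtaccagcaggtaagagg
Slc22a6, plus strand of chr19:8617746-8618045: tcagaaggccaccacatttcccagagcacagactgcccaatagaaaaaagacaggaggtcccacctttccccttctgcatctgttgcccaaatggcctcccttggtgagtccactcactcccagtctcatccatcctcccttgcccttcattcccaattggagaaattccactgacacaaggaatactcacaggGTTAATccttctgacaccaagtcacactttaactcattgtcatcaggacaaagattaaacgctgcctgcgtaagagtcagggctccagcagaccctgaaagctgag
Slc22a19, minus strand of chr19:7711261-7711560: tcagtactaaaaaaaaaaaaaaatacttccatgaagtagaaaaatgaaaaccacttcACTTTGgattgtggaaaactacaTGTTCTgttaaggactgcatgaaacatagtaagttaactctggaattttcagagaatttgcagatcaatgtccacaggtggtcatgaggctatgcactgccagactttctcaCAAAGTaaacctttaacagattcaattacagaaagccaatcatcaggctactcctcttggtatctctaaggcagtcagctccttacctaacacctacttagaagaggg
The Kap window held TATAAA, and the Acy3 window held TATAAA and the reverse complement of CAAAGT. The Slc22a6 window held GTTAAT, and the Slc22a19 window held CAAAGT on each strand and the reverse complement of AGAACA. No match overlapped another in these windows. Among 32851 RefSeq promoters of the same length, TATAAA was present in 13.6%, GTTAAT in 7.10%, CAAAGT in 14.4% and AGAACA in 19.0%. A match is a stretch of letters and is not shown to be a binding site. Slc7a13, Cyp7b1, Slc22a7 and Napsa were named in the search and had no entry.

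Against Slc5a2-type cells, the members carried the transcripts of a different set of carriers and enzymes. A gene was counted as measured with at least 20 CPM in either pool and 20 UMIs in both together, and as higher or lower if its CPM was at least 2-fold apart and the counting interval of the ratio excluded 1. A gene near 0 in a pool was thus measured only through the other pool, and could hardly be called the other way. Of 5036 measured genes, 240 (4.77%) were higher in members and 274 (5.44%) were lower, with a median log2 difference of -0.07 over all measured genes. The cells of both pools come from the same library. The members were selected on Slc7a13 and the Slc5a2-type cells on Slc5a2, so genes that vary with either differ in part by that choice. Mitochondrially encoded genes held 21.4% of UMIs in the members' pool and 24.9% in the pool of Slc5a2-type cells.

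Kap had 86416 CPM (86206 to 86626) in members and 11735 CPM (11635 to 11836) in Slc5a2-type cells, 7.36-fold higher. Napsa, which encodes the aspartic protease napsin A, had 2302 CPM in members and 183 CPM in Slc5a2-type cells, 12.6-fold higher (11.7 to 13.5). In thinned cells Napsa was detected in 81.7% of members, in 37.4% of Slc5a2-type cells and in 34.6% of the non-proximal cells. Its detection in Slc5a2-type cells thus lay near that in the non-proximal cells. Unthinned, the shares were 95.3, 71.8 and 70.4% in the same order. An annotated gene on the other strand overlaps Napsa.

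Carriers of organic ions were divided. Of 21 measured genes of the list, 8 were higher in members and 2 were lower, against 4.77% and 5.44% of all genes. Slc22a7, which encodes an organic anion carrier, had 204 CPM in members and 15.0 CPM in Slc5a2-type cells, 13.6-fold higher (10.7 to 17.7) and the largest ratio among genes with at least 100 CPM other than Slc7a13. Slco1a1, an organic anion transporting polypeptide of the brush border, had 785 CPM in members and 87.6 CPM in Slc5a2-type cells, 8.96-fold higher. Slc22a13 was rarer, with 38.0 CPM in members and 1.34 CPM in Slc5a2-type cells. The uptake carrier Slc22a8 went the other way, with 138 CPM in members and 289 CPM in Slc5a2-type cells, and the efflux pump gene Abcc4 had 1.59 CPM in members and 22.6 CPM in Slc5a2-type cells.

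Solute carriers of the early segment were low in members. Slc34a3, a sodium-phosphate cotransporter, had 2.78 CPM in members and 129 CPM in Slc5a2-type cells, lower by a factor of 46.5. Slc5a12, a lactate transporter, had 18 CPM in members and 396 CPM in Slc5a2-type cells, lower by a factor of 22.0. Of 9 measured early proximal tubule markers other than Slc5a2, 7 were lower and 0 were higher, with a median log2 difference of -2.87. The comparison cells were chosen for high Slc5a2, which bears on this count. All 10 early markers, Slc5a2 included, summed to 1478 CPM in members and 4914 CPM in Slc5a2-type cells. In all other kept untreated cells they summed to 1421 CPM.

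Of 16 measured late proximal tubule markers other than Slc7a13, 15 were higher and 0 were lower, with a median log2 difference of 1.91. Other sodium-coupled carriers were higher in members. Slc5a8, a monocarboxylate carrier, had 199 CPM in members and 19.0 CPM in Slc5a2-type cells, 10.5-fold higher (8.41 to 13.2). Slc5a10, which carries mannose and fructose, had 148 CPM in members and 15.9 CPM in Slc5a2-type cells, 9.36-fold higher. Slc5a1, the high-affinity glucose transporter and itself a late marker, had 28.7 CPM in members and 3.58 CPM in Slc5a2-type cells, 8.04-fold higher.

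Amino acid carriers were likewise divided. Of 16 measured, 3 were higher in members and 7 were lower. The higher ones were Slc6a18, a carrier of neutral amino acids with 284 CPM in members and 40.7 CPM in Slc5a2-type cells, the peptide transporter gene Slc15a2 with 67.9 CPM and 26.6 CPM in the same order, and Slc6a13. Slc7a8 and Slc7a7, which encode light chains of basolateral exchangers, had 5.16 and 27.4 CPM in members and 101 and 272 CPM in Slc5a2-type cells, and their shared heavy chain Slc3a2 had 39.1 CPM in members and 246 CPM in Slc5a2-type cells. Slc3a1, the partner of Slc7a13, had 291 CPM in members and 148 CPM in Slc5a2-type cells, a ratio of 1.96 (1.80 to 2.14) that stayed under the 2-fold limit.

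Of the cytochrome P450 list 19 genes were measured, of which 10 were higher and 3 were lower. Cyp2d9 had 161 CPM in members and 12.3 CPM in Slc5a2-type cells, 13.1-fold higher. Cyp2e1, which oxidises small solvents, had 869.6 CPM in members and 326 CPM in Slc5a2-type cells, 2.67-fold higher, and Cyp4b1 had 1587 CPM in members and 759.7 CPM in Slc5a2-type cells, 2.09-fold higher. Cyp51, an enzyme of sterol synthesis, had 327 CPM in members and 64.6 CPM in Slc5a2-type cells. Cyp2a4, 12.8-fold higher, and Ugt2b37, 10.4-fold higher, have near-identical family members, so reads may have been split between copies and these values are uncertain.

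Peroxisomal and medium-chain acyl-CoA genes were higher or within the limits. Of 30 measured, 10 were higher and 0 were lower. Nudt19, a peroxisomal hydrolase of coenzyme A, had 1055 CPM in members and 183 CPM in Slc5a2-type cells, 5.76-fold higher. Mpv17l had 579.5 CPM in members and 105 CPM in Slc5a2-type cells, and Acox2, an oxidase of branched fatty acids and bile acid intermediates, had 50.9 CPM in members and 10.1 CPM in Slc5a2-type cells. Catalase (Cat) had 501 CPM in members and 339 CPM in Slc5a2-type cells, a ratio of 1.48 that stayed under the limit. Slc27a2, an acyl-CoA synthetase and fatty acid carrier, had 1695 CPM in members and 486 CPM in Slc5a2-type cells.

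In the list of androgen-responsive and male-type kidney genes most members were higher. Of 32 measured, 22 were higher in members and 0 were lower, with a median log2 difference of 1.40. With totals of nuclear genes only, 21 were higher and 1 was lower. Besides Kap, the list held Hsd11b1, an enzyme that activates glucocorticoid, with 93.8 CPM in members and 14.5 CPM in Slc5a2-type cells, and Ghr, the growth hormone receptor, with 523 CPM in members and 151 CPM in Slc5a2-type cells. Several genes of this list also stand in the P450 and late marker lists.

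Other lists moved little. Of 25 nuclear genes of oxidative phosphorylation, 13 mitochondrially encoded genes, 10 of glycolysis and 7 immediate-early and dissociation genes measured, 0 passed the limits. Gluconeogenesis and fructose genes numbered 14, of which G6pc alone was lower, at 133 CPM in members and 296 CPM in Slc5a2-type cells. The endocytic receptor genes Lrp2 and Cubn had 1124 and 146 CPM in members and 1115 and 166 CPM in Slc5a2-type cells, with ratios of 1.01 and 0.881. Among 23 transcription factors measured, Irx3 and Pou3f3 were higher and Maf was lower, at 310.2 CPM in members and 993 CPM in Slc5a2-type cells.

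**Figure D2:**
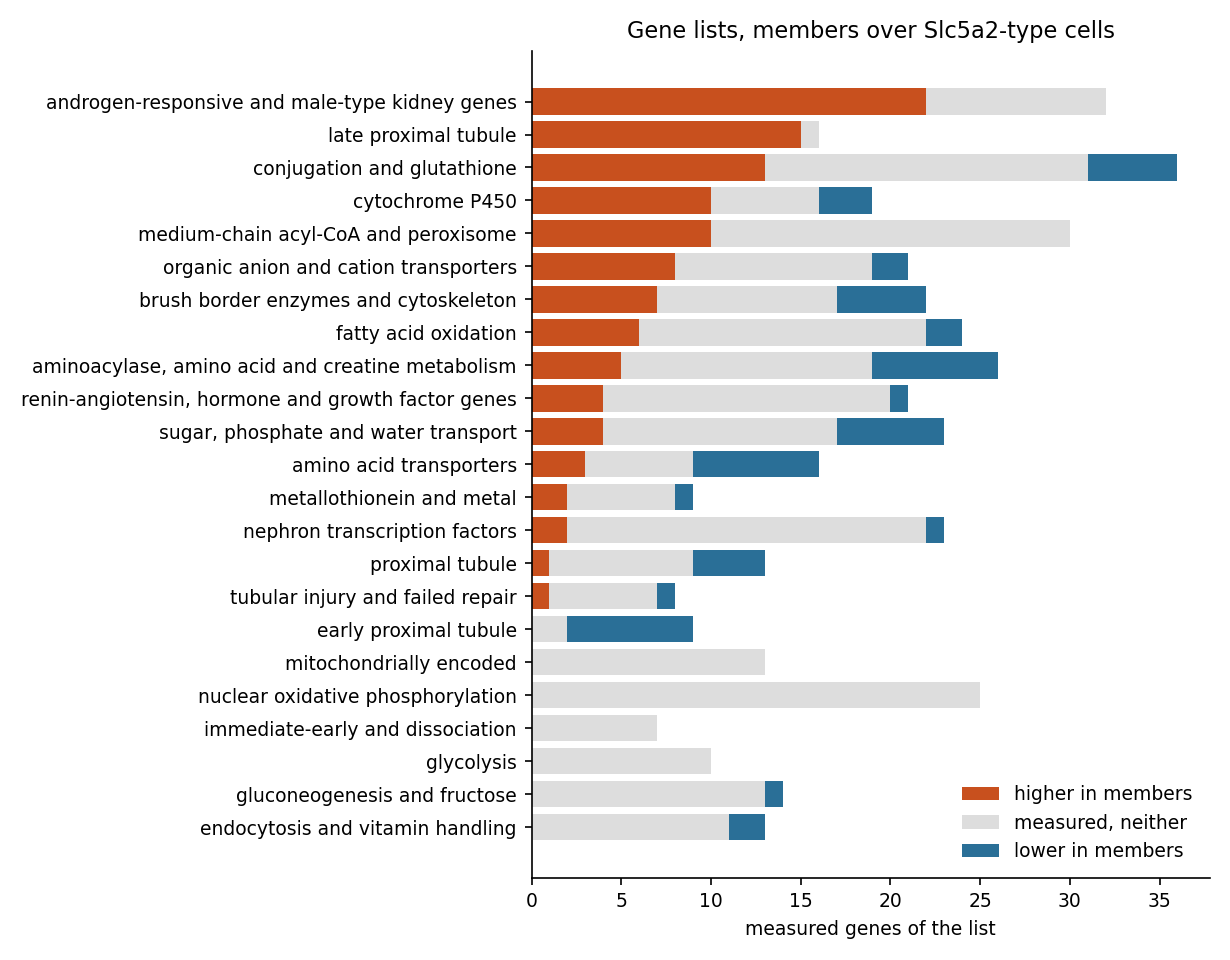
Number of measured genes of each list that were higher in members (orange), within the limits (grey) or lower (blue) than in Slc5a2-type cells, for lists with at least 7 measured genes. The male-type list had 22 of 32 and the late proximal tubule list 15 of 16 genes higher, and the oxidative phosphorylation list had 0 of 25 outside the limits.

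Further genes with large ratios had other roles. Mep1b and Mep1a, the subunits of the brush border protease meprin, had 124 and 997 CPM in members and 9.16 and 209.6 CPM in Slc5a2-type cells, 13.5-fold and 4.76-fold higher. Tmigd1, an adhesion protein of the brush border, had 612 CPM in members and 71.7 CPM in Slc5a2-type cells. Rnase4, a secreted ribonuclease, had 3.84 CPM in members and 134 CPM in Slc5a2-type cells, and Car3, a carbonic anhydrase, had 7.42 CPM in members and 242 CPM in Slc5a2-type cells. Spp2, Prodh2, Acss1, Mdk, Oat, Dpep1 and the unnamed locus D630023F18Rik were lower by factors between 10.1 and 17.9.

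**Figure D3:**
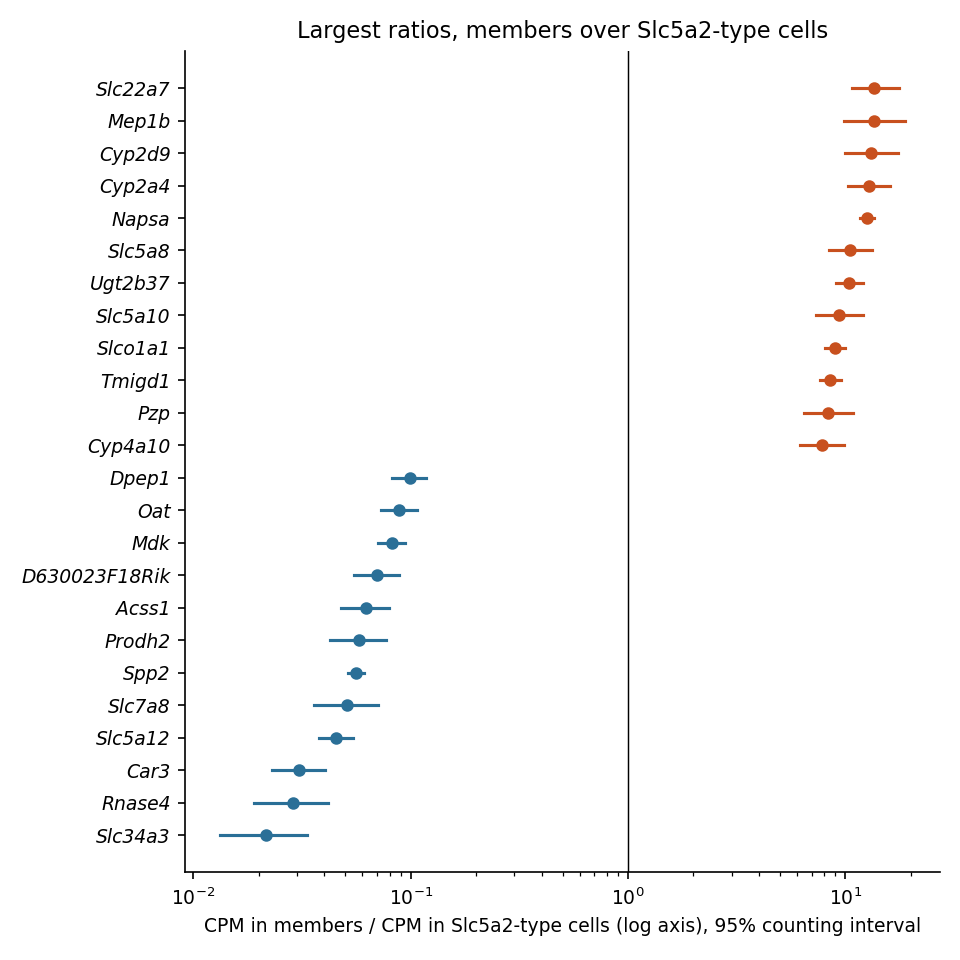
Ratio of CPM in members to CPM in Slc5a2-type cells on a log axis for the 12 genes with the largest ratio in each direction among genes of at least 100 CPM. Points are ratios and lines 95% counting intervals; orange genes were higher in members, between 7.77-fold and 13.6-fold, and blue ones lower.

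Within the kept untreated cells the genes most like Slc7a13 were ranked by Pearson's r of log2(count per 10000 + 1) over 6546 cells, as a description. Kap came first with r = 0.469, then Slc27a2 with 0.405, Napsa with 0.392 and Acsm2 with 0.385. The points share 1 library, any free RNA in it and widely differing depth. Within the 2812 cells of the proximal tubule-like clusters the values were 0.381 for Kap, 0.310 for Slc27a2, 0.371 for Napsa and 0.144 for Acsm2.

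Set against all other kept untreated cells, the members held less RNA of injury and stress genes. Of 6118 measured genes, 385 (6.29%) were higher in members and 1318 (21.5%) were lower, with a median log2 difference of -0.34. Scaled so that the median ratio was 1, the counts were 694 higher and 871 lower. Of 19 tubular injury and failed repair genes measured, 17 were lower and 0 higher, and of 20 immediate-early and dissociation genes 18 were lower and 0 higher. The phosphoprotein gene Spp1 had 184 CPM in members and 2537 CPM in all other kept untreated cells, and the immediate-early gene Jun had 76.5 CPM in members and 643 CPM in all other kept untreated cells. The other cells include further nephron segments, endothelium and urothelium. Against Slc5a2-type cells, none of the immediate-early and dissociation genes measured passed the limits, so their low level was not particular to the members. Genes with the largest ratios included the secreted glycoprotein gene Azgp1, with 152 CPM in members and 23.3 CPM in all other kept untreated cells, and the urothelial gene Upk3a, with 1.46 CPM in members and 133 CPM in all other kept untreated cells. Markers of a second cell class were present in 27.8% of members, 27.3% of Slc5a2-type cells and 76.6% of all other kept untreated cells. With only the proximal tubule-like clusters on both sides, an alternative added after the data were seen, 91 genes were higher and 131 lower.

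Clu, the gene behind the reporter, was scarce in the members although the cells had been sorted for GFP. It had 14.2 CPM (11.6 to 17.1) in members, 21.0 CPM (17.0 to 25.7) in Slc5a2-type cells and 269.5 CPM in all other kept untreated cells. In thinned cells a Clu UMI was found in 22 members, 4.34% (2.74 to 6.50%), in 6.26% of Slc5a2-type cells and in 23.9% of the non-proximal cells (22.5 to 25.3%). Unthinned, the shares were 12.4, 13.4 and 40.2% in the same order. Within the members Clu was 3.08 CPM in cluster 15, 6.89 CPM in cluster 14 and 153 CPM in the 33 cells outside the proximal tubule-like clusters. The transcript of GFP itself was not analysed here.

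The members were not uniform. Cluster 14 held 219 of them (43.2%), cluster 4 held 109, cluster 1 held 71, cluster 0 held 50, cluster 15 held 24 and cluster 6 held 1. Median depth was 24474 UMIs in cluster 15, 21916 in cluster 14, 6492 in cluster 1, 4102 in cluster 4 and 3036 in cluster 0. Cluster 4 carried 204849 CPM of the nuclear RNA Malat1, against 37148 CPM in cluster 14 and 10262 CPM in cluster 1. Over thinned members, Malat1 had a variance 289 times its mean and Kap a variance 76.4 times its mean. Kap ran from 36 UMIs at the 10th percentile to 263 at the 90th, of 2000 UMIs per cell.

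Depth moved with some of these levels. The deeper 254 members had 93339 CPM of Kap and 36244 CPM of Malat1, and the shallower 253 had 48056 CPM of Kap and 110058 CPM of Malat1. Slc22a6 hardly moved, at 736 CPM in the deeper and 687 CPM in the shallower members. Spp1 had 80.0 CPM in the deeper and 761 CPM in the shallower members. The part of depth in these levels was not tested.

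Cluster 15 stood apart, and there the 3 markers of the cell type parted. All 24 of its cells were members, with a median of 12.5% mitochondrial UMIs against 21.1% in cluster 14. Clusters were formed from these same genes, so the differences are a description. Slc7a13 had 1619 CPM in cluster 15 and 1019.9 CPM in the other 483 members, and Acy3 had 3076 CPM in cluster 15 and 2846 CPM in the other members. Slc22a6 had 58.4 CPM in cluster 15 and 791 CPM in the other members, a ratio of 0.0739 (0.0522 to 0.101). In thinned cells Slc22a6 was found in 4.17% of cluster 15 and 70.0% of the other members, below its 24.6% in non-proximal cells.

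Of 4827 measured genes, 246 (5.10%) were higher in cluster 15 than in the other members and 424 (8.78%) were lower. Of 17 late proximal tubule markers, 6 were higher (Serpina1f, Cyp7b1, Slc22a13, Slc22a7, Slc7a12 and Ghr) and 4 were lower (Cyp2e1, Slc22a6, Cyp4b1 and Slco1a1). The male-type list also went both ways, with 8 of 35 measured genes higher and 9 lower. Cyp7b1, a steroid hydroxylase, had 907 CPM in cluster 15 and 9.56 CPM in the other members, 94.9-fold higher (73.5 to 124). Akr1c18, a hydroxysteroid dehydrogenase, had 149 CPM in cluster 15 and 0.725 CPM in the other members. Napsa reached 10397 CPM in cluster 15, against 1539 CPM in the other members.

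The SLC22 carriers went in both directions. Slc22a13 had 305 CPM in cluster 15 and 12.9 CPM in the other members, 23.6-fold higher (18.3 to 30.7). Slc22a19 had 209 CPM in cluster 15 and 13.0 CPM in the other members, 16.0-fold higher (12.2 to 21.2), and Slc22a7 had 817 CPM in cluster 15 and 146 CPM in the other members. Slc22a8 had 10.8 CPM in cluster 15 and 149.6 CPM in the other members. The promoters of Slc22a6 and Slc22a19 printed earlier belong to 2 carriers on opposite sides of this division. In the promoter windows of 5 genes high in cluster 15 and 8 genes low there, AGAACA was present in 2 of 5 and 2 of 8, and GTTAAT in 1 of 5 and 3 of 8. CAAAGT was present in 2 of 5 and 1 of 8, and TATAAA in 1 of 5 and 3 of 8. Over all RefSeq promoters the shares were 19.0% for AGAACA, 7.10% for GTTAAT, 14.4% for CAAAGT and 13.6% for TATAAA. Counts over so few chosen genes cannot show whether a motif follows this division.

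Genes outside the transport lists also differed. The antiprotease genes Serpina1a, Serpina1d and Serpina1f had 699.8, 583 and 497 CPM in cluster 15 and 9.13, 3.77 and 4.06 CPM in the other members. They belong to a family with near-identical copies, so the split between copies is uncertain. Cryab, a small heat shock protein, had 852 CPM in cluster 15 and 25.8 CPM in the other members, and the water channel gene Aqp4 had 171 CPM in cluster 15 and 5.80 CPM in the other members. Slc34a1, a phosphate cotransporter, had 581 CPM in cluster 15 and 3272 CPM in the other members. Havcr1, the kidney injury molecule, had 38.4 CPM in cluster 15 and 2.61 CPM in the other members, and Spp1 had 69.2 CPM in cluster 15 and 195 CPM in the other members. Cryab, Aqp4 and the Serpina1 copies were named after their values were seen.

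**Figure D4:**
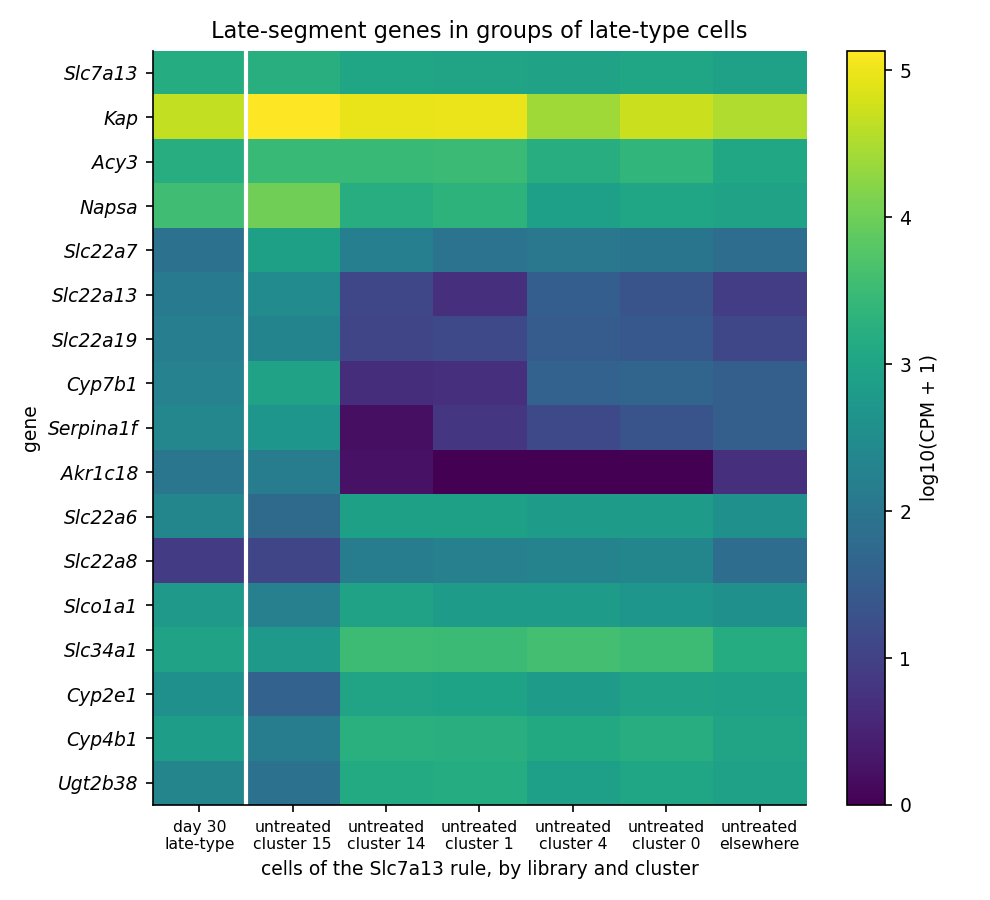
Level of 17 proximal tubule genes, not all of them late markers, as log10(CPM + 1) in colour. Columns are cells of the Slc7a13 rule at day 30 (left of the white line) and untreated members by cluster. Cyp7b1, Serpina1f, Akr1c18, Slc22a13 and Slc22a19 are brighter in cluster 15 and at day 30 than in cluster 14. Slc22a6, with 58.4 CPM in cluster 15, is dimmer there than in cluster 14.

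After ischemia and reperfusion, cells that met the same rule made up a smaller share of the sorted cells. They numbered 507 of 6546 kept cells untreated (7.75%, 7.11 to 8.42%), 1 of 8988 at day 2 (0.0111%, 2.82e-04 to 0.0620%), 2 of 1930 at day 7 (0.104%, 0.0126 to 0.374%) and 104 of 6946 at day 30 (1.5%, 1.22 to 1.81%). Over all kept cells Slc7a13 had 223 CPM untreated, and 0.284, 2.87 and 36.7 CPM at days 2, 7 and 30. The single cell at day 2 had 5 Slc7a13 UMIs of 7501, and the cells at day 7 had 15 of 19708 and 11 of 19934. Shares are of GFP-positive cells, so fewer late tubule cells, loss of Slc7a13 from them and a change in which cells were GFP-positive cannot be told apart. Each library also had its own lowest depth.

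**Figure D5:**
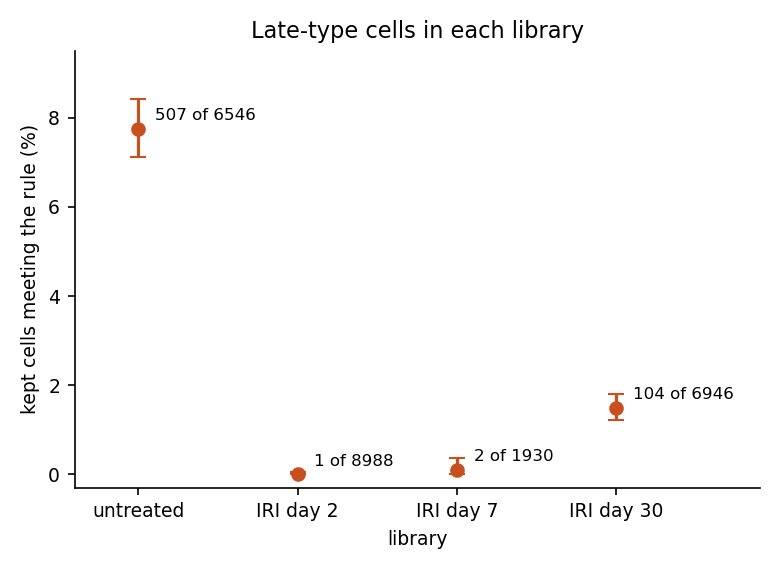
Share of kept cells that met the Slc7a13 rule in each library, in percent, with exact 95% binomial intervals and the counts beside each point. The untreated library lies at 7.75%, days 2 and 7 lie near 0, and day 30 lies at 1.5%.

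The late-segment transcripts of the 104 day 30 cells stood partly above, partly near and partly below those of untreated members. Slc22a6 had 222 CPM at day 30 and 728 CPM untreated, lower by a factor of 3.29, and Slc22a7, Cyp2e1 and Cyp4b1 were also lower. Slc7a13 had 1486 CPM at day 30 and 1072 CPM in untreated members, which the rule holds up in both. Napsa had 3669 CPM at day 30 and 2302 CPM untreated, and Slc27a2 had 2742 CPM at day 30 and 1695 CPM untreated, both within the 2-fold limit. Kap had 45113 CPM at day 30 and 86416 CPM untreated, a ratio of 0.522, and Acy3 had 1551 CPM at day 30 and 2866 CPM untreated, a ratio of 0.541. Both fell past the 2-fold limit with totals of nuclear genes only (0.480 and 0.498) or with median-ratio scaling (0.386 and 0.400). The other kept cells of the day 30 library had less of both: Kap had 948 CPM and Acy3 had 53.2 CPM.

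Of 5910 measured genes, 1167 (19.7%) were higher at day 30 than in untreated members and 194 (3.28%) were lower, with a median log2 difference of 0.35 over all measured genes. Scaled so that the median ratio was 1, 508 (8.60%) were higher and 511 (8.65%) were lower. Of 17 late proximal tubule markers other than Slc7a13, 6 were higher (Slc7a12, Serpina1f, Slc22a13, Acsm3, Cyp7b1 and Slc5a1) and 4 were lower (Slc22a6, Slc22a7, Cyp2e1 and Cyp4b1). With median-ratio scaling Cyp7b1 and Slc5a1 came within the limits and Acy3 joined the lower genes.

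Several genes that were high in cluster 15 were higher at day 30. Serpina1f had 235 CPM at day 30 and 46.5 CPM in all untreated members, 5.06-fold higher (4.33 to 5.90), and Slc22a13 had 136 CPM at day 30 and 38.0 CPM untreated, 3.57-fold higher (2.95 to 4.31). Slc22a19 had 157 CPM at day 30, 209 CPM in untreated cluster 15 and 13.0 CPM in the other untreated members. Akr1c18 had 101 CPM at day 30, 149 CPM in untreated cluster 15 and 0.725 CPM in the other untreated members. Irx1, a transcription factor of the nephron, had 61.5 CPM at day 30, 61.5 CPM in untreated cluster 15 and 3.91 CPM in the other untreated members. The match was not complete. Slc22a7, Serpina1d and Cyp7b1 had 817, 583 and 907 CPM in cluster 15, and 81.6, 59.3 and 187 CPM at day 30. Among genes low in cluster 15, Slc22a6 and Cyp2e1 had 58.4 and 40.0 CPM there, and 222 and 379 CPM at day 30. Slc22a8 was low in both, at 10.8 CPM in cluster 15 and 6.67 CPM at day 30.

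Cyp7b1 and Slc22a6 UMIs were counted together in each cell. At day 30, with each cell thinned to 2000 UMIs, 16 of 104 cells had a Cyp7b1 UMI and no Slc22a6 UMI (15.4%, 9.06 to 23.8%), 2 had both and 27 had Slc22a6 alone; unthinned, 31 had Cyp7b1 alone, 5 both and 38 Slc22a6 alone. Among untreated members 26 of 507 had Cyp7b1 alone (5.13%, 3.38 to 7.42%), 9 had both and 330 had Slc22a6 alone; unthinned, 16 had Cyp7b1 alone, 47 both and 409 Slc22a6 alone, so most untreated members with a Cyp7b1 UMI also had a Slc22a6 UMI at full depth. Of the 26, 16 were in cluster 15, where 0 of 24 thinned cells had both; unthinned, 10 of the 24 had Cyp7b1 alone and 13 had both. Non-proximal untreated cells had such UMIs too: when thinned, 24.6% had a Slc22a6 UMI and 2.95% had a Cyp7b1 UMI. The part of free RNA in these UMIs was not tested. These genes were paired after their values were seen.

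Other genes of transport and metabolism were lower at day 30. Slc22a8 had 6.67 CPM at day 30 and 138 CPM untreated, lower by a factor of 20.6. Of 21 organic ion carriers measured, 3 were higher and 4 lower, or 3 and 9 with median-ratio scaling; with 30% of each pool subtracted as free RNA, 4 of 22 were higher and 3 lower. The main counts stand beside 19.7% higher and 3.28% lower over all genes, and those with median-ratio scaling beside 8.60% and 8.65%. With 30% subtracted, 925 of all genes still measured were higher and 261 were lower. The total still measured is not given here, so no share over all genes stands beside that list count. The subtracted profile was the sum over all deposited barcodes of the library, cells included, and no profile of free RNA itself was measured. Of 17 P450 genes, 1 was higher and 8 lower, or 0 and 9 with median-ratio scaling; Cyp4a12a had 36.3 CPM at day 30 and 316 CPM untreated. Miox, an inositol oxygenase of the proximal tubule, had 292 CPM at day 30 and 1935 CPM untreated, and Slc34a1 had 893 CPM at day 30 and 3040.2 CPM untreated. Of 25 oxidative phosphorylation genes, 0 were higher and 3 lower, or 0 and 14 with median-ratio scaling. The male-type list had 6 of 34 genes higher and 6 lower, with a median log2 difference of -0.30.

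Injury and stress genes were higher at day 30. Of 27 injury and failed repair genes measured, 26 were higher than in untreated members and 0 lower, against 19.7% of all genes, and 23 were higher with median-ratio scaling. Some were measured only through the day 30 pool and could hardly be called lower. Lcn2, for instance, had 21.5 CPM at day 30 and 1.30 CPM in the untreated members outside cluster 15. Havcr1 had 77.8 CPM at day 30 and 5.69 CPM untreated, 13.7-fold higher (9.5 to 20.0). Spp1 had 1478 CPM at day 30 and 184 CPM untreated, and Clu had 81.6 CPM at day 30 and 14.2 CPM untreated, 5.75-fold higher (4.37 to 7.58). Of 20 immediate-early and dissociation genes, 17 were higher and 0 lower, with Jun at 1172 CPM at day 30 and 76.5 CPM untreated.

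RNA of other cell types moved with these genes. The 8 macrophage, monocyte or dendritic markers summed to 2068 CPM at day 30 and 7.68 CPM in untreated members, and 7 of 7 measured were higher; 0 of the 8 were at 0 at day 30 and 2 of the 8 in untreated members. The macrophage lysozyme gene Lyz2 had 633 CPM at day 30 and 0.397 CPM untreated. The 5 fibroblast markers summed to 459.7 CPM at day 30 and 0.927 CPM untreated, and 4 of 4 measured were higher; 0 of the 5 were at 0 at day 30 and 2 of the 5 in untreated members. The macrophage and fibroblast markers were likewise measured only through the day 30 pool and could hardly be called lower. Collagen gene Col3a1 had 224 CPM at day 30, and 181 CPM in the other kept day 30 cells.

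Set against the other kept cells of the same day 30 library, the macrophage and most injury genes were low and the fibroblast genes were not. The 7 higher macrophage markers stood at 11.3 to 20.2% of their level in the other day 30 cells. The 4 higher fibroblast markers stood at 50.4 to 124%, with a median of 89.1%. The 26 higher injury genes stood at a median of 18.3%, and 15 of them under 30%; Clu stood at 12.1% and Spp1 at 18.4%. The 17 higher immediate-early genes stood at a median of 31.7%, up to 84.6% for Hspa1b, with Jun at 78.5%. Havcr1 alone of the 26 stood above the other cells, at 526%. A share of each pool was also subtracted as free RNA, using the summed profile of all barcodes of its library, cells included. At 10%, 13 of 16 injury genes and 16 of 18 immediate-early genes still measured were higher, as were 6 of 6 macrophage and 4 of 4 fibroblast markers. At 30%, added after the data were seen, 6 of 9 injury genes were higher and 1 lower, 8 of 10 immediate-early genes were higher, 4 of 4 fibroblast markers were higher and 0 macrophage markers were still measured. With either subtraction 6 of 17 late markers were higher. Over all genes still measured, 1022 were higher and 178 lower at 10%, and 925 were higher and 261 lower at 30%. The totals still measured are not given here, so no share over all genes stands beside these list counts. The part of other cells' RNA in these results was not tested.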

How the data were processed

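The deposited matrices hold raw UMI counts that the authors did not normalize. The submitters' processing notes name Cell Ranger 7.0.1 and mm10, and per the file headers the software version is 3.0.1. How barcodes were called as cells is not stated in those sources.

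The members and the gene and marker lists were chosen with earlier results of these data known. Pooled levels (CPM) are a gene's summed UMIs over the pool's total. Ratios have exact conditional binomial, levels exact Poisson and shares exact Clopper-Pearson intervals, at 95%. List medians used log2((CPM + 10)/(CPM + 10)). Of the listed genes, 491 of 494 were in the files. The counting steps were tested on simulated data.

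Kept untreated cells were clustered without Slc7a13 and Slc5a2 (2000 variable genes, 30 components, 15 neighbours, Leiden resolution 1; scanpy 1.11.5, Python 3.11.15). Clusters were named from at least 3 leading markers. Doublets were left in; an alternative left out cells with markers of a second class or in the deepest 5% of their library. Feature identifiers matched GENCODE M21 on the same build for 27722 of 27998. The rule for named genes took the 12 with the largest ratio each way at 100 CPM or more in the 2 untreated comparisons, the 10 largest each way at day 30, the markers, Clu and members of the lists; the text gives only some of these.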

Additional observations from a re-analysis of the deposited data

Results flagged for a closer look

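Barcodes that the comparisons do not use also met the gene rule. Of 2739 untreated barcodes over the mitochondrial limit of 50%, 93 (3.40%) met it. Their median depth was 7004 UMIs, with a median of 62.5% mitochondrial UMIs. Slc7a13 chose these barcodes per total UMI, so its level per nuclear UMI is raised by that choice. Per 1000000 nuclear UMIs they had 48255 of Kap and 2617 of Acy3, against 109901 of Kap and 3644 of Acy3 in the members. Slc22a6 and Slc34a1 were at 1571 and 7251 per 1000000 nuclear UMIs in these barcodes, against 926 and 3866 in the members.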

How the results depend on the processing

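No paired analysis was possible because each group has 1 library. The share of kept untreated cells that were members was 7.75%, and it was 3.76% with a minimum of 10 Slc7a13 UMIs per 10000, 11% with at least 1 UMI, 3.71% with at least 10 UMIs, 5.44% with no Slc5a2 UMI and 10.1% with at least 5000 UMIs per cell. At a minimum of 10 per 10000 the shares were 0, 0 and 0.936% at days 2, 7 and 30, and with at least 10 UMIs they were 0% at day 2 and 1.05% at day 30. Counts of genes higher and lower moved as follows. Under a 3-fold rule they were 119 and 127 for members over Slc5a2-type cells, 121 and 770 over all other kept cells, and 405 and 76 for day 30 over untreated members. With no filter on level they were 562 and 944, 686 and 4974, and 3244 and 302. At 100 CPM or more they were 98 and 79, 208 and 253, and 190 and 82. Median-ratio scaling gave 694 and 871 over all other kept cells and 508 and 511 at day 30. Leaving out cells with a second class or of greatest depth gave 105 and 265 over all other kept cells, and proximal tubule-like clusters alone gave 91 and 131. Thinning to 2000 UMIs gave 555 genes higher and 221 lower at day 30, against 1167 and 194 in the main setting. Thinned pools hold fewer UMIs and weight each cell equally. For the median-ratio, thinning and cell choices the cause was not tested. Without second-class and deepest cells, 30 day 30 cells were left, so that comparison was not run there. Across 16, 15 and 16 settings, the named ratios of members over Slc5a2-type cells stayed on their side of the limit 445 times and lost it 2 times (Acy3 and Slc22a6 under the 3-fold rule). Over all other kept cells they stayed 379 times and lost it 28 times, and at day 30 they stayed 341 times, lost it 1 time and passed it 6 times, for Kap and Acy3. Pairs of gene and setting whose ratio was 0 or not finite were left out of these counts, so a gene lost entirely is not among them. No counted ratio that passed the limit in the main setting or in the alternative changed direction. Direction was not followed for ratios within the limit in both. At day 30 and in cluster 15, 104 and 24 cells limit what rare transcripts can show.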
